A study of Mus musculus with 6 samples.

Results

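The genes described here encode subunits of the mitochondrial respiratory chain and of ATP synthase. They were chosen by name, as every gene on the array whose name in the scanner files starts with Nduf, Sdha, Sdhb, Sdhc, Sdhd, Uqcr, Cox4i, Cox5, Cox6, Cox7, Cox8 or Atp5. They number 94 of 27616 gene names. By complex, 37 belong to complex I, 4 to complex II, 8 to complex III, 18 to complex IV and 18 to complex V, and the same prefixes take in 9 assembly factors. They were followed on 6 Agilent 1-colour arrays of mouse embryonic fibroblasts, sampled at day 8 after infection for reprogramming. All cultures had received SKO, an abbreviation that the labels do not spell out, in medium with serum and Lif. To this the Flag group had added Flag (the control), the Gadd45a group Gadd45a, and the G39A group G39A, a mutant of Gadd45a that the series text calls negative, with 2 arrays in each group. The labels give no mouse strain, and the labels do not say that replicates are separate cultures, so the spread behind each p-value may be technical.

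The respiratory chain passes electrons from NADH (complex I) and succinate (complex II) through ubiquinone to complex III, cytochrome c and complex IV, where oxygen is reduced. Complexes I, III and IV pump protons, and complex V, the ATP synthase, uses the gradient to make ATP. Most subunits are encoded in the nucleus and these are the genes counted here. Fibroblasts respire through these complexes, while pluripotent cells are known to rely more on glycolysis, and several complex IV subunits have a second gene used mainly in muscle, lung or testis.

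Each value below is a probe's processed signal after every array was scaled to the same 75th percentile, called scaled signal, and each gene is represented by its brightest probe. Of the 94 genes, 90 entered the tests, and all 90 were well above background on all 6 arrays. The other 4 were complex IV isoforms that were not well above background on any array, namely Cox4i2 (the lung isoform), Cox8b (a muscle isoform), Cox7b2 and Cox8c. The scaled signal of Cox8b, for example, was 4.90 to 14.5 over the 6 arrays. Between 57.0% and 62.9% of the spots on an array were well above background, and no spot was saturated.

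The arrays differed more by replicate number than by group. Pou5f1, also known as Oct4, had scaled signals of 3835, 4971 and 5522 on the replicate 1 arrays of Flag, Gadd45a and G39A and was not well above background on any replicate 2 array, so the replicate 2 arrays go against their label if the O of SKO is this gene and if the probe detects the transgene. Sox2 was dim under both numbers, at 8.27 to 10.9 and 15.6 to 22.5, and was well above background on 1 replicate 2 array only. Klf4 was bright under both, at 13927 to 16219 and 19149 to 20814. The Gadd45a probe was not brighter in the Gadd45a group, at 540.3 against 1013 in Flag in replicate 1 and 2061 against 2378 in replicate 2; whether it can detect the introduced Gadd45a is not stated. The summed scaled signal of 12 fibroblast markers was 635000 to 713300 on the replicate 1 arrays and 1006000 to 1039000 on the replicate 2 arrays, with 11 or 12 of the markers well above background on each array. For 10 pluripotency markers the sums were 4316 to 5937 and 279 to 310, with 3 to 4 and 1 to 2 well above background. Most of the replicate 1 sum was Pou5f1. Zfp42 was 159.6 to 369.5 in replicate 1 and 7.41 to 9.85 in replicate 2, and Dppa5a was 174.4 to 208.4 and 218.9 to 225.1. For 10 epithelial markers the sums were 5933 to 6248 and 1822 to 3147, with 8 and 3 to 5 well above background. Most of the replicate 2 sum was Krt18 and Krt19. Krt18 was 789.3 to 980.3 and 737.5 to 1912, and Krt19 was 892.8 to 1051 and 886.2 to 1088. Krt8, Cdh1, Epcam, Ocln, Cldn3 and Cldn7 were lower in replicate 2. For 8 macrophage markers the sums were 2102 to 2246 and 5798 to 9116, with 6 and 7 well above background and Ptprc dim throughout. Most of the replicate 2 sum was Lyz2. Aif1, Csf1r, Adgre1 and, slightly, Cd14 were higher in replicate 2 too, while Cd68 and Itgam were lower. Adgre1 was well above background on the replicate 2 arrays only. For 6 adipocyte markers the sums were 178 to 314 and 3039 to 4074, with 2 to 3 and 1 to 2 well above background. Nearly all of the replicate 2 sum was Fabp4. The replicate 1 arrays lay on 2 slides, with G39A alone on its slide, and the replicate 2 arrays on another, so slide and replicate number cannot be told apart. Arrays of the same number correlated at 0.988 to 0.993 and arrays of the same group at 0.919 to 0.921, over all probes tested.

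Replicate 2 against replicate 1 was a wider contrast than any between groups. Its standard errors and p-values measure how much the replicate difference varied among the 3 groups. They do not measure spread between independent replicates of the same number. A small number of respiratory chain genes differed between the replicate numbers whichever way the arrays were scaled. Cox6a2, the heart and skeletal muscle isoform of complex IV subunit VIa, was 6.14-fold higher on the replicate 2 arrays (2.62 on the log2 scale, and 1.84 with normexp background correction). Cox6b2 (the testis isoform of subunit VIb) and Cox7a1 (the heart and muscle isoform of subunit VIIa) fell, to 0.534 and 0.635 of their replicate 1 signal. Within complex I, Ndufv3, Ndufs4 and Ndufa3 rose while Ndufb6, Ndufa4, Ndufb8 and Ndufb5 fell, each by less than 2-fold. All of these were called, that is, reached an adjusted p below 0.05 in limma (group as a term, Benjamini-Hochberg adjustment over 15649 genes), under each of 5 ways of scaling the arrays. Ndufa4, Ndufb8 and Ndufb5 were called in none of the fits that left out an array. Fewer cells of a type and less RNA per cell cannot be told apart in such bulk samples.

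Beyond these genes, most of the family moved little, and its common direction depended on how the arrays were scaled. With 75th percentile scaling, 36 of the 90 genes were called higher and 7 lower in replicate 2, with a median difference of 0.22 (log2); with quantile normalization 11 were called higher and 13 lower, with a median of 0.01, and with the authors' deposited value table the counts were 11 and 13, with a median of -0.00. Over all genes tested, 33.0% were called higher and 23.4% lower by percentile scaling, with a median of 0.11, and 30.9% and 23.9% by quantile normalization, with a median of 0.08. The members' 40.0% called higher thus lay near the share of all genes, and their 7.78% called lower lay under it. The interquartile range of the members was 0.23 on the log2 scale, against 0.79 for all genes. A change of 2-fold or more was reached by 1 member (1.11%), Cox6a2, against 21.5% of all genes. The replicate numbers did not overlap for 66 members (73.3%) and for 67.3% of all genes. No member was called in opposite directions by 2 ways of scaling, but 26 members had opposite signs under percentile scaling and quantile normalization. Leaving out any array, which also removes its partner from the contrast, left 6 to 15 members called higher and 4 lower. The counts were 15 higher without either Flag array, 7 without either Gadd45a array and 6 without either G39A array, and the fits hold fewer arrays.

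**Figure D1:**
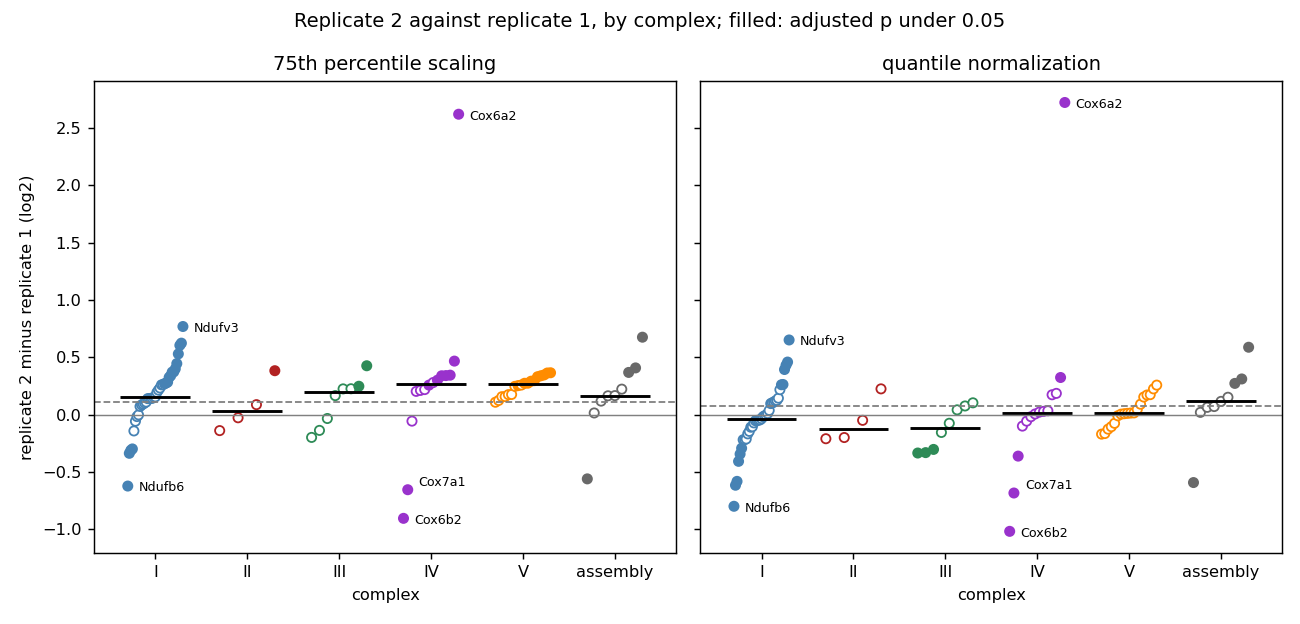
Replicate 2 minus replicate 1 (log2, vertical axis) for the 90 tested genes by complex (horizontal axis), with 75th percentile scaling on the left and quantile normalization on the right. Each point is a gene, filled where the adjusted p was below 0.05; the bar is the median of the complex, and the dashed line is the median of all genes tested. The median of every complex is lower on the right, from a median of 0.27 to 0.01 in complex V, while Cox6a2 (2.62 and 2.72), Cox7a1 (-0.65 and -0.68), Cox6b2 (-0.90 and -1.02), Ndufv3 (0.77 and 0.65) and Ndufb6 (-0.62 and -0.80) are filled in both panels.

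Signal level moved with this dependence. With percentile scaling, the median difference of all genes was 0.03 at a mean log2 signal from -2 to 0 relative to the 75th percentile, 0.17 from 2 to 4, 0.24 from 4 to 6 and 0.31 above 6; with quantile normalization these medians were 0.07, 0.04, 0.02 and 0.02. Respiratory chain genes are bright on these arrays: 85 of the 90 lay above the array's 75th percentile, and 54 had a mean log2 signal above 4. The 40 members between 4 and 6 had a median of 0.21, beside 0.24 for all 967 genes in that range, and the 14 members above 6 had a median of 0.25, beside 0.31 for all 248 genes there. The 23 members from 2 to 4 had a median of 0.27, above the 0.17 of all genes in that range, and the 8 members from 0 to 2 had -0.03, below the 0.10 of all genes there. The part of signal level in the members' differences was not tested.

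**Figure D2:**
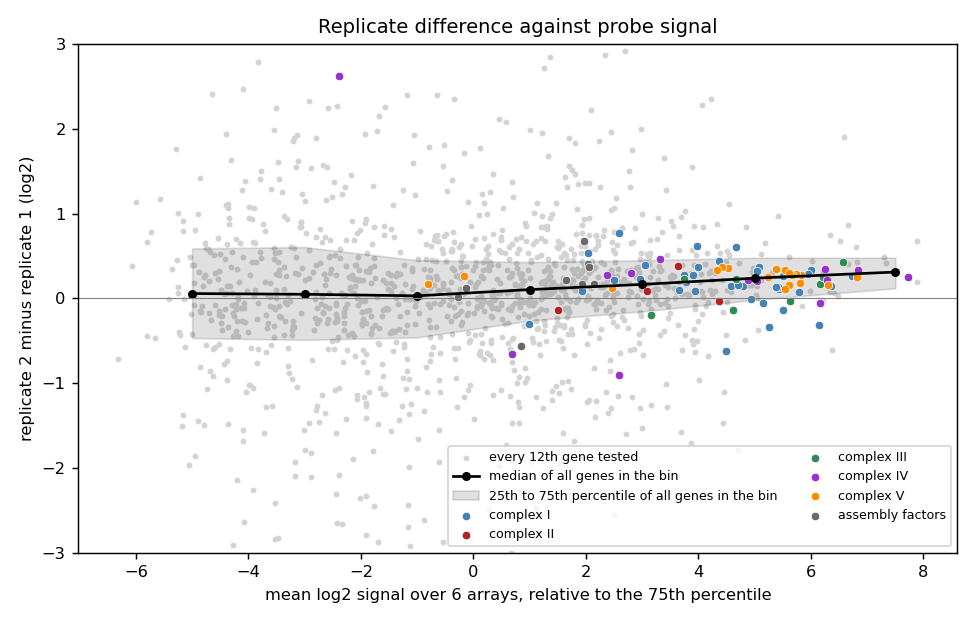
Replicate 2 minus replicate 1 (log2) against the mean log2 signal over 6 arrays, with 75th percentile scaling. Grey points are every 12th gene tested, the black line joins the medians of all genes in bins of at least 100 genes, and the band spans their 25th to 75th percentiles; the vertical axis stops at 3 in both directions. The line lies at 0.03 to 0.06 below a signal of 0 and reaches 0.31 at the bright end, and most coloured points, the respiratory chain genes, lie near it on the bright side.

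Under every one of the 5 ways of scaling, 11 members (12.2%) were called higher and 7 (7.78%) lower, beside 28.3% and 20.9% of all genes, so a smaller share of the members than of all genes was called under all 5. The 11 included Cox6a2 and Cox7a2l of complex IV, Ndufv3, Ndufs4, Ndufa3, Ndufc1 and Ndufa11 of complex I, and the assembly factors Ndufaf7, Ndufaf2 and Sdhaf1. The 7 were Cox6b2 and Cox7a1 of complex IV, Ndufb6, Ndufa4, Ndufb8 and Ndufb5 of complex I, and the assembly factor Ndufaf3. None came from complexes II, III or V. Of the 18, 10 were also called in every fit that left out an array, among them Cox6a2, Cox6b2, Cox7a1, Ndufv3, Ndufs4, Ndufa3, Ndufb6, Ndufaf3 and Ndufaf7. Ndufc1, Ndufa11, Ndufb5 and the 4 assembly factors are outside the rule for named genes and were named after their values were seen.

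Complex I holds 7 catalytic core subunits that the nucleus encodes and many accessory subunits around them. Ndufv3, a small accessory subunit of the NADH-oxidizing module, had scaled signals of 4082, 3423 and 4025 on the replicate 1 arrays of Flag, Gadd45a and G39A and of 6486, 6290 and 6813 on the replicate 2 arrays. Every replicate 2 array was above every replicate 1 array, and the difference was 0.77 ± 0.08 (log2, SE; n = 3 pairs of arrays; limma adjusted p = 0.00245). Its probe lies at chr17:31658570-31658629 (mm9, the build of the array design). Ndufs4, an accessory subunit of the same module whose loss causes a mitochondrial encephalopathy, went from 11147, 10669 and 9502 in replicate 1 to 15839, 16469 and 15831 in replicate 2, a difference of 0.62 ± 0.08 (limma adjusted p = 0.00481). Ndufa3, an accessory subunit, differed by 0.60 ± 0.08 (limma adjusted p = 0.00465). With quantile normalization the differences were 0.65, 0.46 and 0.39. The replicate numbers did not overlap for any of these genes, but that was a condition for naming called genes by size of change. It adds no support for them or for genes named that way below, and it held for 67.3% of all genes.

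In the opposite direction, Ndufb6, an accessory subunit of the membrane arm, had scaled signals of 21862, 22536 and 24498 in replicate 1 and 15114, 15011 and 14583 in replicate 2. All 3 replicate 2 arrays were lower, by -0.62 ± 0.08 (limma adjusted p = 0.00474), and by -0.80 with quantile normalization. Ndufb8 and Ndufb5, accessory subunits of the same arm, differed by -0.31 ± 0.08 (limma adjusted p = 0.0262) and -0.30 ± 0.08 (limma adjusted p = 0.0383). Ndufa4, which carries a complex I name but is now counted as a complex IV subunit, differed by -0.34 ± 0.08 (limma adjusted p = 0.0249). Ndufb8, Ndufb5 and Ndufa4 missed the threshold whichever array was left out, with adjusted p-values of up to 0.136. In all, 13 of the 37 complex I genes (35.1%) were called higher and 4 (10.8%) lower with percentile scaling, beside 33.0% and 23.4% of all genes. With quantile normalization 6 were called higher and 6 lower, beside 30.9% and 23.9% of all genes, and the complex's median turned from 0.16 to -0.04. Of the 7 core subunits, 2 were called higher with percentile scaling and none lower. Ndufb2 was called higher at 0.32 ± 0.09, but its second probe differed by -0.66, at scaled signals of 102 to 127 in replicate 1 and 58.5 to 95.8 in replicate 2, so that the probes of this gene disagree. The chosen Ndufb2 probe spans chr6:39548309-39549394, more than the length of a probe, and so crosses an intron, and the second lies at chr6:39553019-39553078 (mm9). The probes of Ndufv2 and Sdha disagreed in sign too, and 26 of the 29 members with another tested probe had probes of 1 sign.

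Complex II, succinate dehydrogenase, links the citric acid cycle to the chain. Sdhc, a membrane anchor subunit, was the only called subunit with percentile scaling, with scaled signals of 9372, 9227 and 8363 in replicate 1 and 11822, 11540 and 11755 in replicate 2. The difference was 0.38 ± 0.08 (limma adjusted p = 0.0173) and became 0.22 with quantile normalization, where it was not called (limma adjusted p = 0.0686). The flavoprotein Sdha differed by -0.14 ± 0.09 (limma adjusted p = 0.265), while its 2 other probes gave 0.23 and 0.13. The iron-sulfur subunit Sdhb differed by 0.09 ± 0.08 and the second anchor Sdhd by -0.03 ± 0.08 (limma adjusted p = 0.391 and 0.785).

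In complex III, 2 of 8 genes were called higher with percentile scaling and none lower, and none higher and 3 lower with quantile normalization. Uqcrq, a small subunit, had 70442, 68113 and 64802 in replicate 1 and 85557, 96953 and 90918 in replicate 2, a difference of 0.43 ± 0.09 (limma adjusted p = 0.0159) that was 0.10 with quantile normalization. Uqcrh, the hinge protein near cytochrome c1, differed by 0.25 ± 0.07 (limma adjusted p = 0.047) and by -0.08 with quantile normalization. Uqcrfs1, the Rieske iron-sulfur protein that passes electrons to cytochrome c1, differed by -0.20 ± 0.07 (limma adjusted p = 0.081), and by -0.33 with quantile normalization, where it was called (limma adjusted p = 0.0207). Cyc1 and Cycs, the genes of cytochrome c1 and of somatic cytochrome c, which the name prefixes miss, differed by 0.06 and 0.01 and were not called.

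Complex IV has the tissue isoforms, and the clearest differences of the family were among them. Cox6a2 had scaled signals of 65.4, 75.4 and 51.9 on the replicate 1 arrays of Flag, Gadd45a and G39A and of 447.4, 338.0 and 392.0 on the replicate 2 arrays. The lowest replicate 2 array was several times the highest replicate 1 array, and the probe (chr7:135349160-135349219, mm9) was well above background on all 6. The difference was 2.62 ± 0.17 (limma adjusted p = 0.000656), with 2.77 in Flag, 2.16 in Gadd45a and 2.92 in G39A. Its size depends on the background correction for this dim probe, at 1.84 with normexp, and it was 2.72 with quantile normalization. Cox6a1, the isoform of other tissues, had 161754, 156300 and 162563 in replicate 1 and 186104, 197243 and 191231 in replicate 2, which is 0.26 ± 0.08 (limma adjusted p = 0.0456) and -0.06 with quantile normalization.

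Cox6b2 had scaled signals of 7064, 6981 and 6327 in replicate 1 and 4226, 3241 and 3477 in replicate 2. Every replicate 2 array was lower, by -0.90 ± 0.10 (limma adjusted p = 0.00284) and by -1.02 with quantile normalization. Its partner Cox6b1, the isoform of other tissues, differed by 0.30 ± 0.07 (limma adjusted p = 0.0254), and by 0.19 with quantile normalization, where it was not called (limma adjusted p = 0.0916). Cox7a1 had 1923, 1560 and 1575 in replicate 1 and 988.5, 1101 and 1113 in replicate 2, a difference of -0.65 ± 0.13 (limma adjusted p = 0.0133). The Flag pair differed most, by -0.96, beside -0.50 in each of the Gadd45a and G39A pairs. Cox7a2, the isoform of other tissues, differed by 0.21 ± 0.08 (limma adjusted p = 0.0886) and by 0.01 with quantile normalization. Cox7a2l, a relative of subunit VIIa known for joining complexes III and IV in supercomplexes, differed by 0.47 ± 0.10 (limma adjusted p = 0.0182) and by 0.32 with quantile normalization.

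The muscle isoforms Cox6a2 and Cox7a1 therefore moved in opposite directions. A list of 10 striated muscle markers was measured beside them: its summed scaled signal was 3781 to 4021 on the replicate 1 arrays, with 5 to 6 markers well above background, and 18760 to 21900 on the replicate 2 arrays, with 7. Actc1, the cardiac actin, carried most of it, at 1799 to 2104 and 13965 to 16356. Acta1, Des and Myl1 were higher in replicate 2 too. Acta1 was 432.9 to 526.9 and 3369 to 4172, Des 159.9 to 239.4 and 523.3 to 759.7, and Myl1 7.55 to 13.2 and 84.2 to 92.2. Myh3 overlapped between the numbers, at 3.92 to 34.2 and 26.6 to 44.4. The troponins Tnnt2 and Tnni1 were lower in replicate 2, at 999.2 to 1065 and 436.8 to 678.8 for Tnnt2 and 185.1 to 261.7 and 28.3 to 33.8 for Tnni1. Ckm, Myod1 and Myog, genes of the skeletal muscle lineage, were not well above background on any array. The part of these cells or genes in the Cox6a2 result was not tested.

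**Figure D3:**
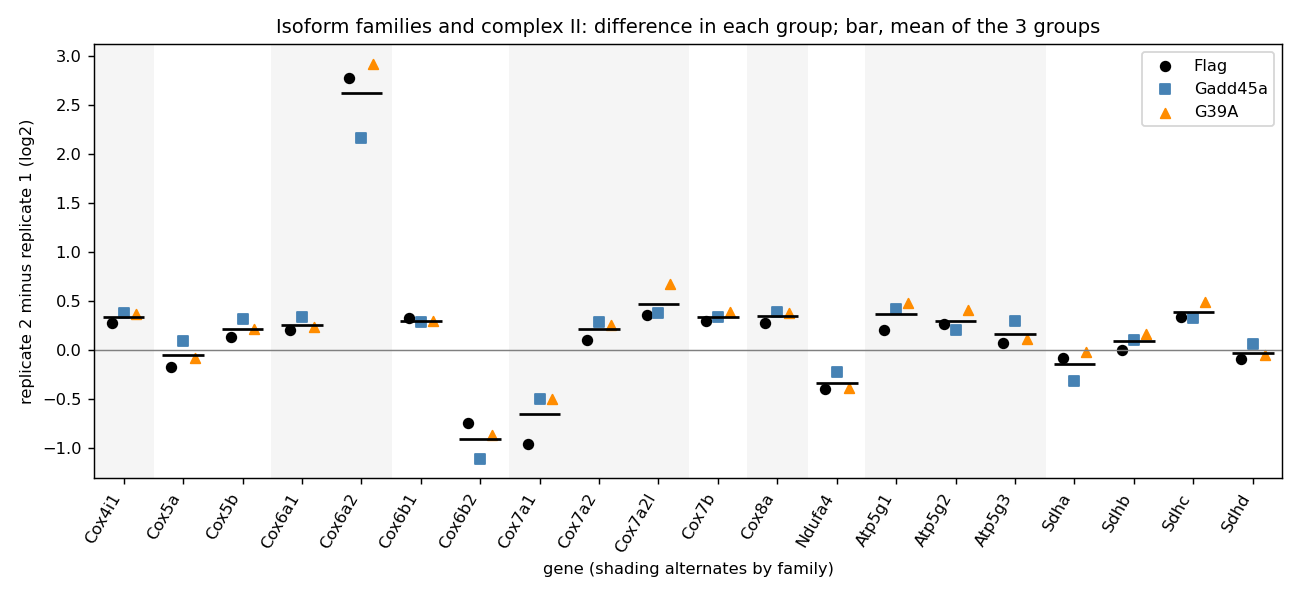
Replicate 2 minus replicate 1 (log2, vertical axis; 75th percentile scaling) for the tested complex IV isoforms, Ndufa4, the Atp5g genes and complex II. Each marker is the difference in a group (Flag, Gadd45a or G39A) and the bar is the mean of the 3. Cox6a2 lies between 2.16 and 2.92 in every group, and Cox6b2 and Cox7a1 are below 0 in every group, while the other genes stay within 0.7 of 0.

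Among the remaining complex IV genes named by family, Cox4i1, Cox7b and Cox8a differed by 0.34 ± 0.08, 0.34 ± 0.07 and 0.34 ± 0.08 (limma adjusted p = 0.02, 0.0188 and 0.0197), and by only 0.02, 0.03 and 0.03 with quantile normalization, where none was called. Cox5b differed by 0.22 ± 0.08 and was not called (limma adjusted p = 0.0777). Cox5a differed by -0.06 ± 0.09 (limma adjusted p = 0.617), and by -0.36 with quantile normalization, where it was called (limma adjusted p = 0.0173).

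Complex V had the narrowest range. All 18 genes had a difference above 0 with percentile scaling, from 0.11 to 0.37. Of these, 10 (55.6%) were called higher and none lower, beside 33.0% and 23.4% of all genes. With quantile normalization, however, the median went from 0.27 to 0.01 and no gene was called. Atp5g1, one of 3 genes that encode the same mature c subunit of the membrane ring, had 16781, 15281 and 14577 in replicate 1 and 19380, 20341 and 20255 in replicate 2, a difference of 0.37 ± 0.09 (limma adjusted p = 0.0274). Atp5g2 differed by 0.29 ± 0.08 (limma adjusted p = 0.0405) and Atp5g3 by 0.16 ± 0.09 (limma adjusted p = 0.182). Atp5d, the delta subunit of the central stalk, and Atp5f1, subunit b of the peripheral stalk, differed by 0.36 ± 0.08 and 0.35 ± 0.08 (limma adjusted p = 0.0189 and 0.0239). By position in the enzyme, medians were 0.25 for 5 genes of the catalytic head and central stalk, 0.29 for the 3 ring genes, 0.28 for 4 genes of the peripheral stalk and 0.33 for 3 small membrane subunits. Atp5c1-ps, a pseudogene by name, is counted among the 18, as are Atp5s and Atp5sl, which RefSeq now names Dmac2l and Dmac2, the latter a complex I assembly component. None of the 3 was called. The signal of Atp5c1-ps and that of Atp5c1 could be shared, and the values are uncertain to that extent.

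**Figure D4:**
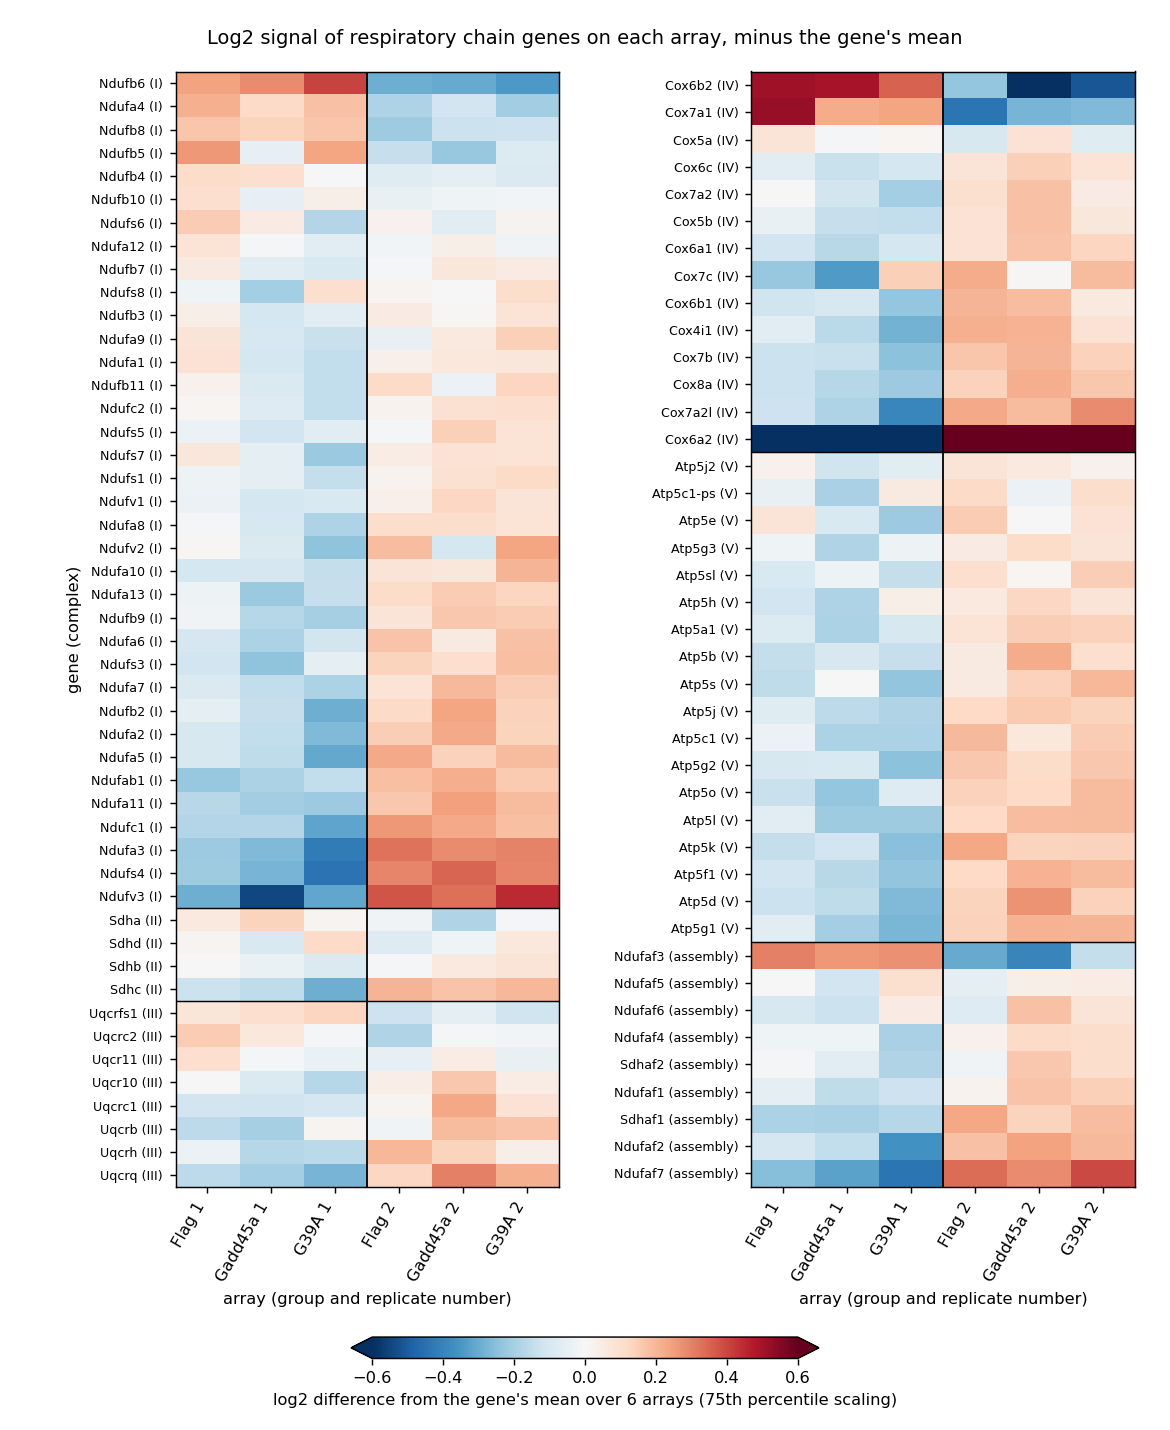
Log2 signal of tested genes (rows, by complex and sorted by replicate difference) on each of the 6 arrays (columns), minus the gene's mean over the arrays; colour is capped at 0.6 in both directions. The vertical line separates the replicate numbers. Most rows change colour at that line, in opposite directions at the top and bottom of the complex I and IV blocks, and Cox6a2, Cox6b2 and Ndufv3 are among the rows that change most.

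Among the assembly factors that the prefixes take in, 3 of 9 (33.3%) were called higher and 1 (11.1%) lower, with percentile scaling and with quantile normalization alike. Over all genes the shares were 33.0% and 23.4% with percentile scaling and 30.9% and 23.9% with quantile normalization, so the share called higher was near that of all genes. Ndufaf7, a methyltransferase that acts in complex I assembly, had 2699, 2578 and 2380 in replicate 1 and 4067, 3916 and 4233 in replicate 2, a difference of 0.68 ± 0.09 (limma adjusted p = 0.00443). Ndufaf3, an early complex I assembly factor, had 1829, 1778 and 1794 in replicate 1 and 1202, 1128 and 1344 in replicate 2, a difference of -0.56 ± 0.09 (limma adjusted p = 0.00714). Both differed in the same direction in all 3 groups.

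Other genes of the pathway were counted from lists, to be read against the 33.0% of all genes called higher and the 23.4% called lower with percentile scaling. Of 78 genes named as mitochondrial ribosomal proteins, 26 (33.3%) were called higher and 2 (2.56%) lower, with a median of 0.20, and 14 and 5 with a median of 0.08 with quantile normalization. Of 12 citric acid cycle genes, 5 were called higher and none lower (2 and 1 with quantile normalization), the largest being Suclg2, a subunit of succinate-CoA ligase, at 0.88 ± 0.08. Of 25 assembly and insertion factors outside the prefixes, 8 were called higher and 2 lower under both scalings, among them Tmem70, which assists complex V assembly, at 0.83 ± 0.11 and Acad9, which assists complex I assembly, at -0.82 ± 0.08. Of 7 genes for exchange across the inner and outer membrane, 2 were called higher and none lower. Of 9 genes of pyruvate entry, 4 were called higher and none lower (3 and 2 with quantile normalization). Pdk4, a kinase that inhibits pyruvate dehydrogenase, had scaled signals of 145.9, 131.2 and 122.1 in replicate 1 and 777.8, 906.4 and 693.0 in replicate 2, a difference of 2.57 ± 0.10 (limma adjusted p = 0.000223). Pdk1, another of these kinases, differed by 1.31 ± 0.08 (limma adjusted p = 0.000492).

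Of 16 regulators of respiratory genes and mitochondrial DNA, 5 (31.2%) were called higher and 1 lower, beside 33.0% and 23.4% of all genes, and 4 and 0 with quantile normalization. The 3 coactivators of the PGC-1 family were among the 5. Ppargc1a, the best known of them, had scaled signals of 101.0, 79.8 and 83.1 in replicate 1 and 215.3, 135.6 and 193.2 in replicate 2, a difference of 1.03 ± 0.12 (limma adjusted p = 0.00285). Ppargc1b had 174.1, 130.5 and 163.8 in replicate 1 and 576.5, 238.3 and 469.5 in replicate 2, a difference of 1.37 ± 0.19 (limma adjusted p = 0.00506), with the Gadd45a array the lowest under both numbers. Pprc1 differed by 0.79 ± 0.08 (limma adjusted p = 0.00209). With quantile normalization the 3 differences were 1.14, 1.44 and 0.72. Nrf1, a transcription factor of respiratory genes, was the gene called lower, at -0.27 ± 0.08 (limma adjusted p = 0.0476), and was not called with quantile normalization (limma adjusted p = 0.101).

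Promoters bear on genes that a few factors are known to control together. RefSeq windows from 250 bases before to 50 after the start (GRCm38.p6) matched 78 of the 94 genes, and 3 motifs were searched on both strands: the NRF1 motif GCATGCGC, the ETS motif CCGGAAGT bound by GABP, and the YY1 motif AAGATGGCG. The NRF1 motif was in 12 genes (15.4%) and in 3.05% of all 27025 genes with a window, the ETS motif in 5 (6.41%) and 4.31%, and the YY1 motif in 8 (10.3%) and 1.64%. At least 1 of the 3 was in 24 of the 78 members (30.8%) and in 8.47% of all genes with a window. By call with percentile scaling, it was in 12 of 30 members called higher, in none of the 7 called lower and in 12 of 39 not called. The members called lower are few, and no difference between these shares was tested. These are descriptions of letters in a window, not of binding. The 250 bases before the start are shown for Cox6a1 and for the isoform pairs that differed unequally, because those pairs carry the clearest contrast within the family. Capitals mark a motif match. They are from chr5:115348959-115349208 (Cox6a1), chr7:30626115-30626364 (Cox6b1), chr7:4753095-4753344 (Cox6b2), chr9:79759854-79760103 (Cox7a2), all on the minus strand, and chr7:30183921-30184170 on the plus strand (Cox7a1), in GRCm38.p6.
Cox6a1: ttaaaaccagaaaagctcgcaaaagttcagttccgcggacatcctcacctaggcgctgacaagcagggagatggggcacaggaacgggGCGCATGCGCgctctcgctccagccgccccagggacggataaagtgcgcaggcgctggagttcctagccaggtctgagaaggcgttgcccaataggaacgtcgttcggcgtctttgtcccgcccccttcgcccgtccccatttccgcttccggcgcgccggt
Cox6b1: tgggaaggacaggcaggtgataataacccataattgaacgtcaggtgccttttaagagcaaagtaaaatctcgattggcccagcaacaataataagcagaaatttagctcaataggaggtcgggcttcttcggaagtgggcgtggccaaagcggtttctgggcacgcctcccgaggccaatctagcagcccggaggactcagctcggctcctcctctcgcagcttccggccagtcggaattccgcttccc
Cox6b2: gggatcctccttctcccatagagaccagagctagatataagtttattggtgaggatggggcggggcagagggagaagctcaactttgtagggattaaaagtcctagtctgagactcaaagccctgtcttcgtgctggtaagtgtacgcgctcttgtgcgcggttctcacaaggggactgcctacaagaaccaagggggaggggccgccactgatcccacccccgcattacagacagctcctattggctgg
Cox7a2: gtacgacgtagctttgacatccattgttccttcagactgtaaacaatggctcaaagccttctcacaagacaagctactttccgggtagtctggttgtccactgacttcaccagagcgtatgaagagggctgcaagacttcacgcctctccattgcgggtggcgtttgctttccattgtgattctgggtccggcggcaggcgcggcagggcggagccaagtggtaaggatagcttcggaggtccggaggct
Cox7a1: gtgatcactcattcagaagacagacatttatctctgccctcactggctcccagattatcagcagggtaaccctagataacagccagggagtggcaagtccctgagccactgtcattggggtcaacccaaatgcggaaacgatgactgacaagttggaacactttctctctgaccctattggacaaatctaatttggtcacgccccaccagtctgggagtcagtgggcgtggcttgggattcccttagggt
The Cox6a1 window holds the NRF1 motif on both strands in overlap, and the other 4 hold none of the 3 motifs. CG pairs numbered 14 before Cox6b1 and 8 before Cox6b2, and 14 before Cox7a2 and 4 before Cox7a1. Other members did not share this order. Of genes called higher, Ndufs4 and Ndufa3 had 7 each, Ndufv3 14 and Ndufs3 21, and Ndufb6, called lower, had 10. Cox6a2, the partner of Cox6a1, had no window.

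Between the groups, which is the comparison the study's design names, no respiratory chain gene was called. Limma called none of the 90 for Gadd45a against Flag, G39A against Flag or Gadd45a against G39A, with or without the replicate number as a block, and none had an unadjusted p below 0.05 in either fit. Over all genes 0% were called in each comparison; at an unadjusted p below 0.05 the fit without the block had 97, 82 and 114 of the 15649 genes and the blocked fit had 8.59%, 2.89% and 8.88%. Within a replicate number, the 90 genes lay between -0.31 and 0.20 (log2) for Gadd45a against Flag in replicate 1 and between -0.40 and 0.25 in replicate 2. For G39A against Flag they lay between -0.33 and 0.37 and between -0.28 and 0.19. The comparisons with Flag share the Flag arrays. No member differed by more than 0.5 in either, beside 7.27% and 12.5% of all genes for Gadd45a against Flag in replicates 1 and 2 and 9.24% and 4.81% for G39A against Flag. For Gadd45a against G39A, 1 member, Cox6a2, exceeded 0.5 in replicate 1, at 0.54, with -0.21 in replicate 2, where no member did, beside 11.4% and 9.34% of all genes.

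The arrays set a limit on what could have been missed. With the replicate block, the 95% interval of every one of the 90 genes lay within a 2-fold change in each comparison, without adjustment for their number, and 86, 86 and 88 of the 90 intervals lay within 0.5 on the log2 scale. The median standard error of a group difference was 0.10 with the block and 0.22 without it. The widest bounds belonged to Cox6a2 and Cox7c: -0.67 and 0.47, both for Cox6a2, in Gadd45a against Flag, -0.83 (Cox6a2) and 0.53 (Cox7c) in G39A against Flag, and -0.69 (Cox7c) and 0.73 (Cox6a2) in Gadd45a against G39A. These intervals do not show that the groups are equal.

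The member with the largest mean difference between groups was Cox7c, a small complex IV subunit, which had scaled signals of 3652, 3378 and 4722 in Flag, Gadd45a and G39A in replicate 1 and 4982, 4291 and 4876 in replicate 2. Gadd45a was the lowest group under both numbers, by -0.48 and -0.18 against G39A (mean -0.33 ± 0.13 with the block, SE; limma unadjusted p = 0.0617) and by -0.11 and -0.22 against Flag. Every replicate 1 comparison with G39A is also a comparison between slides, and with the slide as a random block the members' median for Gadd45a against G39A went from 0.02 to -0.02. Ndufb5 had 1957, 1584 and 1930 in replicate 1 and 1486, 1397 and 1548 in replicate 2. Gadd45a was lowest, by -0.31 and -0.09 against Flag (limma unadjusted p = 0.121 with the block) and by -0.28 and -0.15 against G39A. Cox4i1, the main isoform of complex IV subunit IV, was lowest in G39A, by -0.22 and -0.13 against Flag (limma unadjusted p = 0.124 with the block). Uqcrb, a small complex III subunit, was higher in G39A than in Flag by 0.17 and 0.19 (limma unadjusted p = 0.167 with the block). Cox6b2 differed from Flag by -0.02 and -0.38 in Gadd45a and by -0.16 and -0.28 in G39A. None of these passed the test. A shared direction in both replicate numbers was a condition for naming these genes, so it adds no support. Of the 90 members, 59 had opposite signs in the replicate numbers for Gadd45a against Flag, 53 for G39A against Flag and 43 for Gadd45a against G39A.

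For complex II, Sdhd was higher in G39A than in Flag by 0.10 and 0.14 (limma unadjusted p = 0.265 with the block), and the mean differences of the 4 subunits lay between -0.04 and 0.01 for Gadd45a against Flag and between -0.09 and 0.12 for G39A against Flag. Complex III had a median difference of -0.07 in replicate 1 and 0.15 in replicate 2 for Gadd45a against Flag, complex IV of -0.06 and 0.05, and complex I of -0.09 and 0.03. The sign of the median differed between the replicate numbers in each of these complexes.

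**Figure D5:**
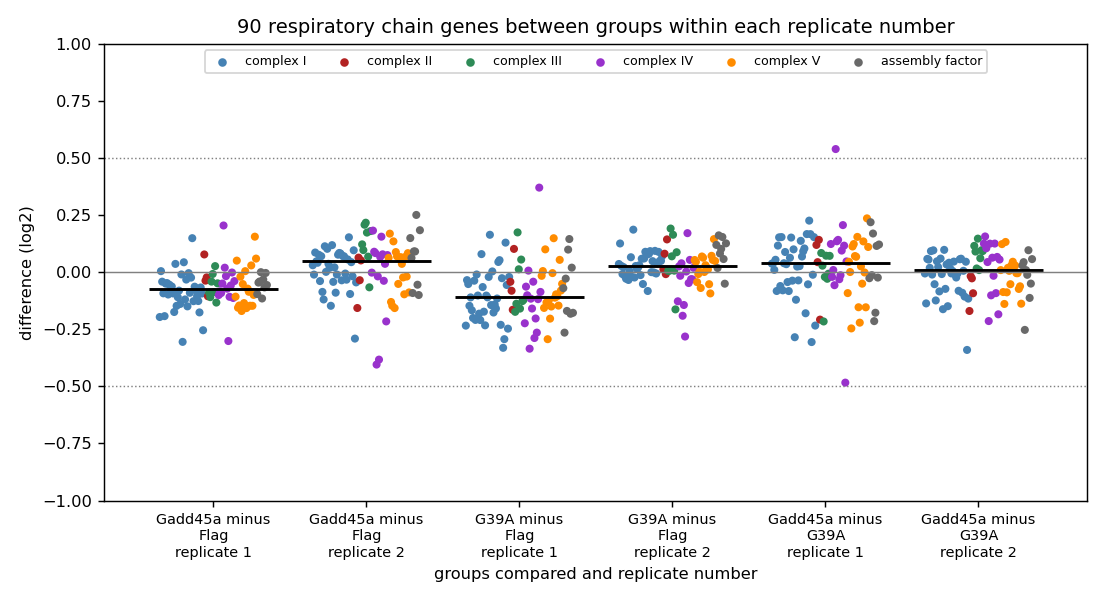
Difference between groups (log2, vertical axis) of the 90 tested genes within each replicate number (horizontal axis), coloured by complex; bars are medians and dotted lines mark 0.5 in both directions. The genes lie inside the dotted lines except Cox6a2 in Gadd45a against G39A in replicate 1, at 0.54, and the medians for both comparisons with Flag are below 0 in replicate 1 and above 0 in replicate 2.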

How the data were processed

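The members and gene lists were chosen with earlier results of these data known. Agilent Feature Extraction (10.7, per the submitters' processing notes) made the deposited spot intensity values, with background subtraction and spatial detrending per the file headers, and marks, scored 0 or 1, of spots well above background, saturated or outlying. The authors' deposited value table holds log2 values whose columns share a median of 6.17; its other steps are not given in the sources used.

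Unmarked spots of each probe were averaged, log2 taken and each array's 75th percentile subtracted. Kept probes were measured on all 6 arrays and well above background on both arrays of a group, and the brightest probe represented its gene, giving 15649 genes. Names came through RefSeq for 27668 of 41174 probes (GRCm38.p6, names only); members kept the file's name, of 139 probes. Coordinates of probes are those of the array design (mm9). Groups were compared with limma 3.58 in R 4.3 without a block (3 residual degrees of freedom), and replicate numbers with group as a term (2). The script was tested on simulated data. Replicate numbers pair the arrays: deviations from group means correlated at 0.911 to 0.915 between groups. Alternatives were normexp (offset 50), median scaling, quantile normalization, the deposited table, other filters, the mean of probes, the replicate block, the slide as a random block and leaving out each array. Genes were named by complex: complex II, isoform families, up to 3 members each way of largest change among called members whose replicate numbers did not overlap (otherwise the 3 of smallest p), and between groups up to 4 each way differing alike in both replicates. Array number limits precision. A member counted in the totals is not reported here by name.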

Additional observations from a re-analysis of the deposited data

Results flagged for a closer look

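The median difference of the 90 respiratory chain genes had opposite signs under the replicate numbers in both comparisons with Flag. For Gadd45a against Flag it was -0.0755 (log2) in replicate 1 and 0.0498 in replicate 2, and for G39A against Flag it was -0.11 and 0.0265. Over all genes tested these medians were -0.0392 and -0.0019 for Gadd45a against Flag, and -0.0496 and -0.0021 for G39A against Flag. The difference between the replicate numbers was not tested, and both comparisons share the Flag arrays.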

How the results depend on the processing

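Replicate 2 against replicate 1 depended on the scaling: quantile normalization and the authors' deposited value table each gave 11 members higher and 13 lower, with medians of 0.0071 and -0.0014, against 36, 7 and 0.22. Without a filter on dim probes, 6 were called higher and 3 lower. Leaving out each array gave 6 to 15 higher, 4 lower and medians of 0.19 to 0.26. Median scaling, normexp, the mean of probes, the stricter filter and the replicate number alone gave 33 to 44 higher and 7 lower. Signs reversed under quantile normalization and in the deposited table for Atp5g3 (-0.13 and -0.14), Cox5b (-0.10 and -0.12), Cox6a1 (-0.0567 and -0.0604), Sdhb (-0.0495 and -0.0459) and Uqcrh (-0.0752 and -0.0742), with the mean of all probes for Sdha (0.0714), and without either Flag array for Cox5a (0.0027) and Sdhd (0.0059), whose values over the fits without an array ran from -0.13 to 0.0027 and from -0.0726 to 0.0059. Leaving out Atp5s, Atp5sl and Atp5c1-ps, an alternative chosen after seeing the data, kept 36 and 7.

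Between groups, the replicate block called 0 members in each comparison, as did the fit without it, and the block changed no call. With the slide as a random block the median for Gadd45a against G39A was -0.0176. Leaving out each array moved the medians between -0.15 and 0.11 for Gadd45a against Flag, -0.16 and 0.11 for G39A against Flag and -0.12 and 0.14 for Gadd45a against G39A. For dim probes such as Cox6a2, signal over background limits the size of a difference.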
